A study of Mus musculus with 16 samples.

Results

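The transcripts of 9 genes that mark lymphocytes, out of 20284 gene symbols matched to array probes, were followed in 16 mouse liver samples. Of these genes 6 mark T cells (Cd3d, Cd3e, Cd3g, Cd8a, Lck and Cd2) and 3 mark B cells (Cd79a, Cd79b and Ms4a1). They were taken by name, whatever their values, through the accession of each probe on the array. The array held a probe for all 9, and 8 passed the filter on dim probes and were tested among 25790 features, while Cd79a stayed too dim for a test.

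The 8 miR-185-inh mice were male ApoE knockouts on a high-fat diet that received lentivirus encoding an antisense inhibitor of the microRNA miR-185. The 8 ctrl-inh mice were male ApoE knockouts on the same diet that received the control inhibitor. The labels give an age of 8 weeks and livers taken after 8 weeks for both groups. The labels do not state which liver cells the virus reached, and 1 array was run per numbered sample with total RNA of whole liver. The miR-185-inh arrays shared a slide and the ctrl-inh arrays shared a different one, so a difference between the groups and a difference between the slides cannot be told apart. A slide had 2 rows with 4 arrays in each. In miR-185-inh, row 2 held mice 8, 9, 10 and 12 and row 1 held mice 1, 3, 6 and 7; in ctrl-inh, row 2 held mice 8, 9, 11 and 12 and row 1 held mice 1, 2, 3 and 4. Slide row and mouse number therefore ran together, and a difference between rows cannot be told apart from one between lower and higher numbered mice. The share of spots well above background was 58.7% to 74.8% over the 16 arrays, with 60.7% to 62.3% in miR-185-inh row 2 and 62.5% to 67.1% in row 1, and 58.7% to 64.2% in ctrl-inh row 2 and 68.6% to 74.8% in row 1. Each numbered sample is called a mouse here, though the labels do not state that they are separate animals. The p-values here speak only of how these samples scatter, part of which may be technical.

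T cells recognise antigen through a receptor that cannot signal by itself and that relies on the CD3 chains, whose tails are phosphorylated by the kinase LCK. B cells use the same principle, with CD79A and CD79B as the signalling pair of the B cell receptor, and mature B cells carry CD20, the product of Ms4a1. The liver holds resident T cells and natural killer (NK) cells between its hepatocytes and along its sinusoids, with fewer B cells, and in ApoE knockout mice lymphocytes are studied mainly in the artery wall. In RNA from whole liver, fewer cells of a type and less RNA per cell cannot be told apart.

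The 3 CD3 genes lie next to each other in the genome, and their promoters are shown because their transcripts moved together across these livers. RefSeq (GRCm38.p6) places the start of Cd3d 1355 bases from that of Cd3g on the opposite strand, and 27825 bases from that of Cd3e. Each sequence runs from 250 bases before to 50 after the transcript start, at chr9:44981536-44981835 on the plus strand for Cd3d, chr9:45009562-45009861 on the minus strand for Cd3e and chr9:44980382-44980681 on the minus strand for Cd3g. Capitals mark matches on either strand to an E-box (CANNTG), a GATA motif (AGATAA), an ETS motif (GGAAGT) or a RUNX motif (TGTGGT).
Cd3d: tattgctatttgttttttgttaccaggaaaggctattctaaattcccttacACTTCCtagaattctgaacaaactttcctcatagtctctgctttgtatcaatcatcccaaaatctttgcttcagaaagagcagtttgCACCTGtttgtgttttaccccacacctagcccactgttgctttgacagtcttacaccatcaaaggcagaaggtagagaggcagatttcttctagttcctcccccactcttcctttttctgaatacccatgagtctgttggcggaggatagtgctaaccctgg
Cd3e: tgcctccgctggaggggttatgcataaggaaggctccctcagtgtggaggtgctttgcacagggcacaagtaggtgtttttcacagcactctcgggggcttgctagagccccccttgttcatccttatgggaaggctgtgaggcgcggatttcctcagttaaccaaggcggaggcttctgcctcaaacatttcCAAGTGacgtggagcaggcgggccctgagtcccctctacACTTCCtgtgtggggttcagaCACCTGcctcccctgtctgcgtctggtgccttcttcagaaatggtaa
Cd3g: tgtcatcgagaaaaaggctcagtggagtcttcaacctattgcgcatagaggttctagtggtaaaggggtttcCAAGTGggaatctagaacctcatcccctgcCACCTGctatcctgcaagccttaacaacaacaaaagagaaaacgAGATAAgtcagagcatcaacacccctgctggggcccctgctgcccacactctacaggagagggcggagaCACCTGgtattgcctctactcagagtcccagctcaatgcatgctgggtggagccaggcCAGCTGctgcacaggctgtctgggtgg
E-boxes stood in all 3 promoters, with 1 match in Cd3d, 2 in Cd3e and 4 in Cd3g, against 72.3% of the 32851 mouse promoters of the same length. The E-box letters CACCTG, chosen after the sequences were seen, stood in each of the 3 and in 20.2% of all promoters. The ETS letters were found in Cd3d and Cd3e and in 23.8% of all promoters. The GATA letters were found in Cd3g and in 11.2% of all promoters. No match to the RUNX letters (16.8% of all promoters) or to the TATA letters TATAAA (13.6%) stood in these 3 windows. Of the 9 genes, 6 had a promoter entry. The CACCTG letters and the ETS letters also stood in the promoters of Lck and Cd79a, and neither stood in that of Cd8a. These letters were thus not particular to the CD3 genes.

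The CD3 genes were measured well above background on all 16 arrays. Values are log2 of the probe's processed signal relative to the 75th percentile of its array, so 0 is the level of that percentile. Cd3e, which encodes the epsilon chain that pairs with both other CD3 chains, had -2.32, -2.23, -0.44 and -2.21 in miR-185-inh mice 8, 9, 10 and 12 of row 2 and -2.72, -2.37, -2.78 and -2.55 in miR-185-inh mice 1, 3, 6 and 7 of row 1. In ctrl-inh livers Cd3e had -2.40, -2.07, -2.70 and -2.50 in mice 8, 9, 11 and 12 of row 2 and -1.73, -1.88, -2.36 and -2.04 in mice 1, 2, 3 and 4 of row 1. One miR-185-inh liver, that of mouse 10, was the highest of all 16, and ctrl-inh mice 1, 2 and 4 came next. None of the other 7 miR-185-inh livers exceeded the ctrl-inh mean of -2.21.

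Cd3g, the gamma chain, and Cd3d, the delta chain, followed the same order at the top. Cd3g had -1.92, -2.26, -0.38 and -2.10 in miR-185-inh row 2 and -2.32, -2.17, -2.37 and -2.23 in miR-185-inh row 1, against -2.19, -1.84, -2.51 and -2.24 in ctrl-inh row 2 and -1.24, -1.48, -2.17 and -1.74 in ctrl-inh row 1, each in the order of mice given above. Cd3d had a lowest, median and highest value of -2.68, -2.49 and -0.86 in miR-185-inh and of -2.96, -2.30 and -1.30 in ctrl-inh. For all 3 CD3 genes the first 5 ranks of the 16 livers fell to miR-185-inh mouse 10 and then ctrl-inh mice 1, 2, 4 and 9.

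Cd8a encodes the alpha chain of the coreceptor of cytotoxic T cells, which some dendritic cells also carry. It had -4.84, -4.32, -2.18 and -4.52 in miR-185-inh row 2 and -4.93, -4.98, -4.92 and -4.80 in miR-185-inh row 1. It had -4.27, -4.52, -4.61 and -5.52 in ctrl-inh row 2 and -3.24, -3.78, -4.54 and -4.31 in ctrl-inh row 1. The spread was wide in both groups, and miR-185-inh mouse 10 again stood on top with ctrl-inh mice 1 and 2 after it. Cd8a was well above background on 15 of 16 arrays, the exception being ctrl-inh mouse 12, its lowest value. Its probe was printed as 10 spots, whose SD within an array was 0.04 to 0.23, below the distance of mouse 10 from the nearest miR-185-inh liver (2.14). A second Cd8a probe, of 1 spot and well above background on 5 of 16 arrays, correlated with the first at only r = 0.467 over the arrays, a description, and also had its highest miR-185-inh value in mouse 10 (-4.63, with the next at -6.17).

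Lck, the kinase that starts signalling from the CD3 chains, had a lowest, median and highest value of -2.49, -2.23 and -1.002 in miR-185-inh and of -2.53, -1.89 and -1.12 in ctrl-inh. Cd2, an adhesion receptor of lymphocytes, had -2.22, -1.99 and -0.87 in miR-185-inh and -2.27, -1.65 and -0.81 in ctrl-inh. Cd2 was the only T cell gene of the 6 whose highest liver was ctrl-inh mouse 1, with miR-185-inh mouse 10 second. A second probe of Cd2, printed as 10 spots, followed the first with r = 0.908 over the 16 arrays and placed mouse 10 at -2.53, against at most -3.30 in the other 7 miR-185-inh livers.

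The B cell genes were spread differently. Cd79b had 0.28, -0.20, 0.85 and -0.10 in miR-185-inh row 2 and 0.02, -0.18, -0.03 and 0.48 in miR-185-inh row 1, against 0.02, 0.60, -0.07 and -0.35 in ctrl-inh row 2 and 0.67, 0.16, -0.05 and 0.05 in ctrl-inh row 1. Ms4a1 had -2.08, -2.77, -1.96 and -2.85 in miR-185-inh row 2 and -2.66, -2.70, -2.78 and -2.14 in miR-185-inh row 1, against -2.61, -2.17, -2.75 and -3.63 in ctrl-inh row 2 and -1.89, -2.40, -2.62 and -2.67 in ctrl-inh row 1. In both genes miR-185-inh mice 7, 8 and 10 were the 3 highest of their group, ctrl-inh mice 1 and 9 the 2 highest of theirs, and ctrl-inh mouse 12 the lowest of all 16. Ms4a1 in mouse 10 exceeded the next miR-185-inh liver by only 0.12.

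Cd79a, the partner of Cd79b, was not well above background on any miR-185-inh array and was so on 3 of the 8 ctrl-inh arrays, those of mice 1, 2 and 3 of row 1. Its measured values averaged -6.49 ± 0.70 in miR-185-inh and -6.19 ± 0.74 in ctrl-inh (SD, n = 8 each), and they give no fold, because a bound on the dim group exceeds the mean of the other. The two-sided exact permutation test of its group means gave p = 0.409. The limma tests and set means of the B cell members thus rest on Cd79b and Ms4a1. Cd79a still enters the correlations given below.

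**Figure D1:**
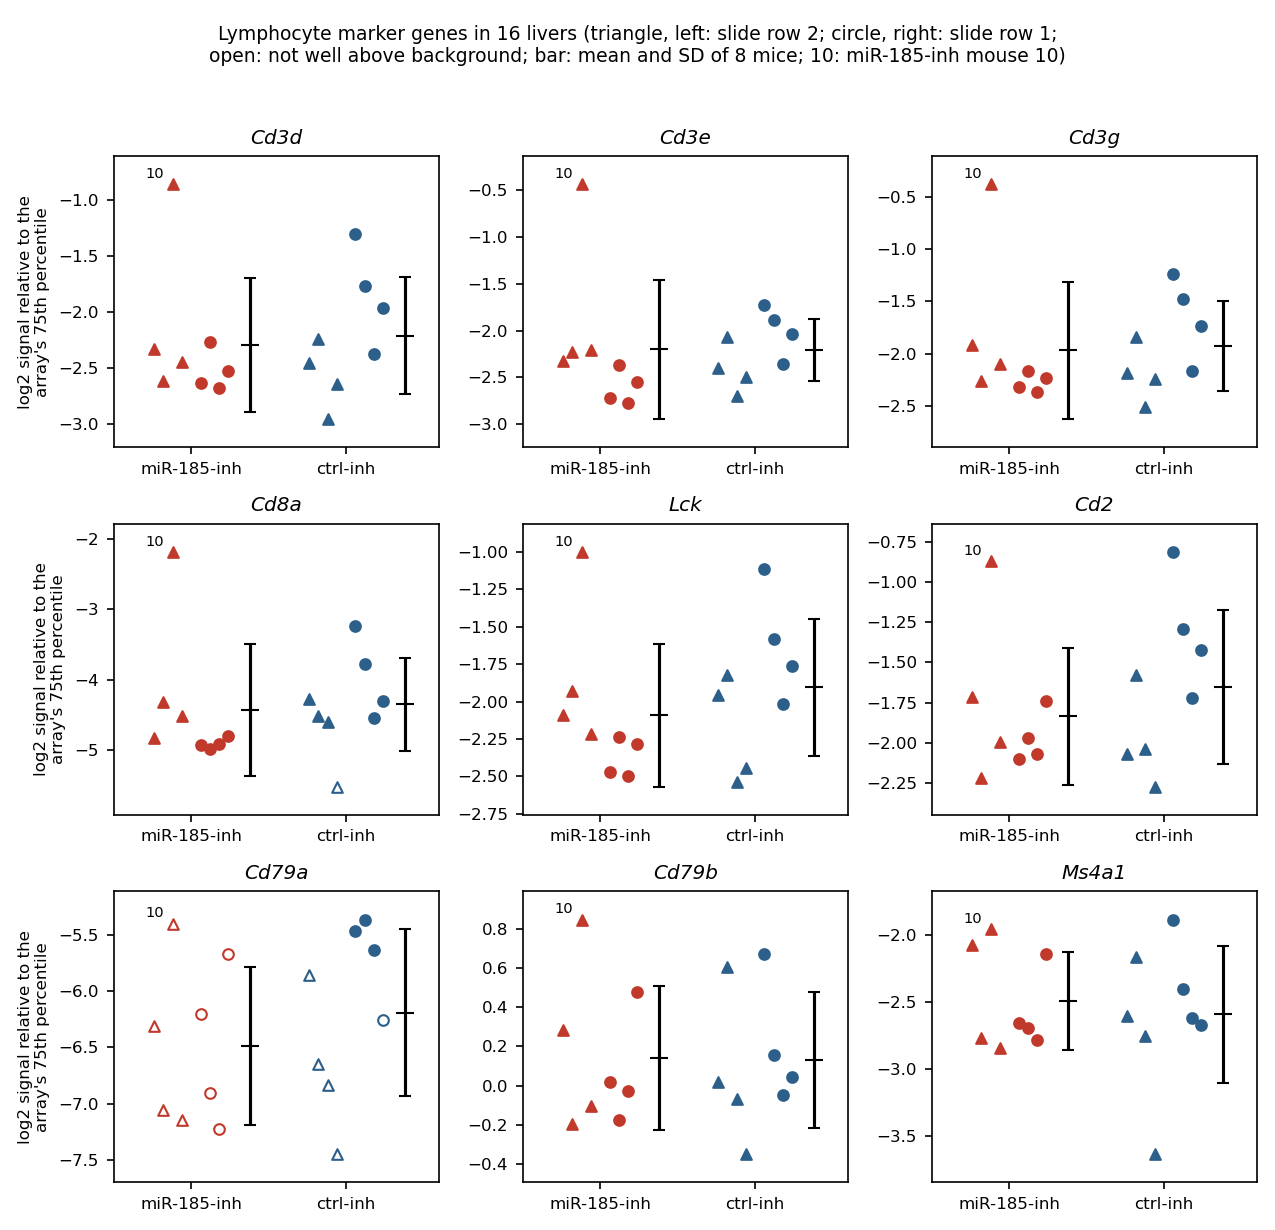
Each panel plots 1 gene, with the log2 signal relative to the array's 75th percentile on the vertical axis and 1 point per liver (triangles row 2, circles row 1, open points not well above background); bars are the mean and SD of the 8 mice of a group. Mouse 10 of the miR-185-inh group stands clear of the other 7 miR-185-inh livers in the T cell genes, for example at -0.44 in Cd3e, and less so in the B cell genes, where Ms4a1 reached -1.96 in it.

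Between the groups none of the 8 tested genes passed. The calls were made with limma over all features with Benjamini-Hochberg adjustment and a threshold of 0.05, under which 4.71% of features were called, and 0 of the 8 genes had an unadjusted p under 0.05, against 20.2% of all features. Cd3e averaged -2.20 ± 0.74 in miR-185-inh and -2.21 ± 0.33 in ctrl-inh (SD, n = 8 each), a difference of 0.01 (SE 0.26, adjusted p = 0.992, limma). Cd8a averaged -4.44 ± 0.94 in miR-185-inh and -4.35 ± 0.66 in ctrl-inh, a difference of -0.09 with a 95% interval of -0.87 to 0.70. Among the T cell genes Lck had the difference farthest from 0, at -0.19 (SE 0.22, adjusted p = 0.682, limma), and the two-sided exact permutation p over 6435 splits was 0.437. Ms4a1 differed by 0.10 (95% interval -0.33 to 0.53, adjusted p = 0.834, limma) and Cd79b by 0.01 (95% interval -0.34 to 0.36, adjusted p = 0.982). The median difference was -0.09 over the 6 T cell genes and 0.06 over the 2 B cell genes tested, beside -0.03 over all features.

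These intervals leave room for changes in either direction. In fold terms the 95% interval ran from 0.68 to 1.48 for Cd3e, from 0.55 to 1.62 for Cd8a and from 0.79 to 1.29 for Cd79b, miR-185-inh over ctrl-inh. One library weighed on all T cell values: only mouse 10 among the 8 miR-185-inh livers lay above the ctrl-inh mean of Cd3d, Cd3e, Lck and Cd2. Without mouse 10 the difference was -0.24 for Cd3e, -0.27 for Cd3g, -0.29 for Cd3d, -0.41 for Cd8a, -0.34 for Lck and -0.32 for Cd2, with adjusted p of 0.283 to 0.422 in limma and a median of -0.31, so none of the 6 passed there. Cd79b and Ms4a1 then differed by -0.09 and 0.02. Without ctrl-inh mouse 1 the Cd3d, Cd3e, Cd3g and Cd8a differences were 0.05, 0.08, 0.06 and 0.07.

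Mouse 10 of the miR-185-inh group was high in the T cell genes by amounts few features matched. Set against the median of the other 7 miR-185-inh livers, Cd8a was 6.29-fold higher in it, Cd3e 3.80-fold, Cd3g 3.61-fold, Cd3d 3.18-fold, Lck 2.36-fold and Cd2 2.18-fold. The ranks of these differences among 25790 features were 12, 44, 56, 77, 156 and 186. Cd79b was 1.84-fold and Ms4a1 1.67-fold higher, at ranks 354 and 563. The 30 named genes farthest above the other 7 livers in mouse 10 were a mixed list. Chosen from it after their values were seen were Gzma, a granule protease of cytotoxic cells (log2 difference 2.73), and Ccl5, a chemokine that cytotoxic lymphocytes secrete (2.10). Eomes, a transcription factor of cytotoxic T and NK cells (2.07), and Nkg7, a granule membrane protein (2.05), were chosen likewise. Gzma, Ccl5, Eomes and Nkg7 had ranks 8, 16, 18 and 19 among named genes. Ahead of them stood Cd200r2 (2.935), Olfr494 (2.854) and Arhgap40 (2.827).

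The high values of that liver were uneven across cell types. Mouse 10 was the highest of the 8 miR-185-inh livers in 20.3% of all features, in 12 of 15 NK and cytotoxic genes, in 12 of 17 other T cell genes and in 14 of 19 other B cell genes. It was highest in 5 of 11 Kupffer cell and macrophage markers, in 3 of 10 hepatocyte markers and in 0 of 12 neutrophil markers. The median log2 difference from the other 7 livers was 0.87 for the NK and cytotoxic genes, 0.56 for the other T cell genes, 0.40 for the other B cell genes and 0.16 for the hepatocyte markers, beside 0.06 for all features. The summed signal of the hepatocyte markers, in units of the array's 75th percentile, was 363 to 492 in miR-185-inh and 393 to 548 in ctrl-inh. These are values of 1 liver, with no test.

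T and B cell genes were then set against each other liver by liver, by the mean over each set of the log2 values minus each gene's mean over the 16 arrays. The T cell mean was 1.47 in miR-185-inh mouse 10 and between -0.46 and -0.11 in the other 7 miR-185-inh livers. In ctrl-inh row 2 it was -0.14, 0.08, -0.47 and -0.51 in mice 8, 9, 11 and 12, and in ctrl-inh row 1 it was 0.85, 0.46, -0.11 and 0.22 in mice 1, 2, 3 and 4. The B cell mean was 0.65 in miR-185-inh mouse 10, 0.37 in mouse 7 and 0.31 in mouse 8, with the other 5 miR-185-inh livers between -0.28 and -0.12. In ctrl-inh it was 0.60 in mouse 1, 0.42 in mouse 9 and 0.08 in mouse 2, with the other 5 livers between -0.79 and -0.09. Mice 7 and 8 of the miR-185-inh group were thus high in the B cell genes and not in the T cell genes. The T cell mean minus the B cell mean was -0.64 in mouse 7, -0.42 in mouse 8 and 0.82 in mouse 10 of that group.

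**Figure D2:**
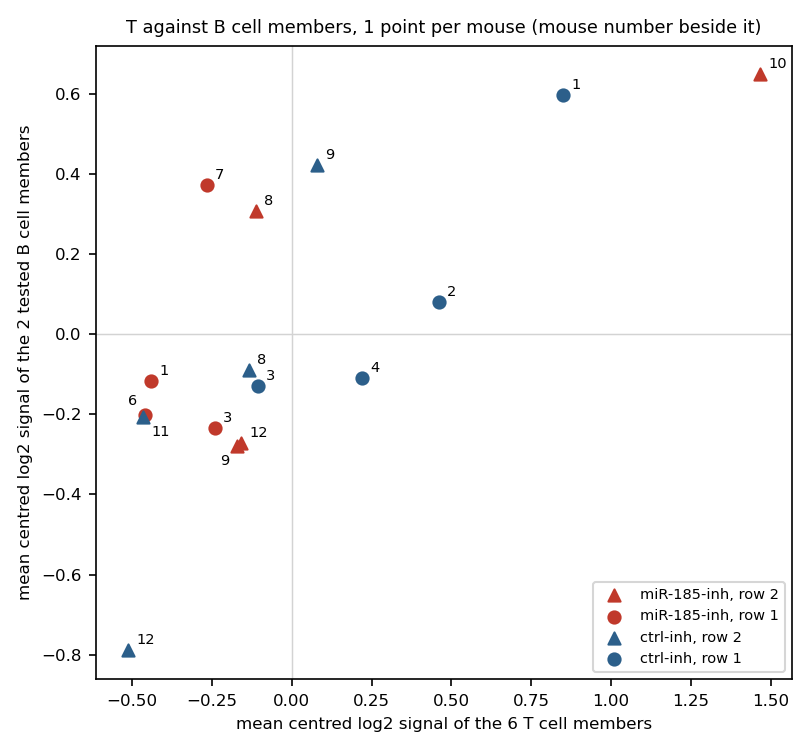
Each point is 1 liver, with the mean centred log2 signal of the 6 T cell genes on the horizontal axis and that of the 2 tested B cell genes on the vertical axis, and the mouse number beside it. Mouse 10 of miR-185-inh and mouse 1 of ctrl-inh lie at the upper right, while miR-185-inh mice 7 and 8 lie at 0.37 and 0.31 on the B cell axis and below 0 on the T cell axis.

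The T cell genes followed each other closely, and the B cell genes less evenly. After the group means were removed, the 15 pairs of T cell genes correlated across the 16 arrays with r of 0.818 to 0.978 and a median of 0.916, and without mouse 10 the range was 0.712 to 0.968. The 18 pairs of a T cell with a B cell gene had r of 0.524 to 0.848 and a median of 0.665. Without mouse 10 their range was 0.335 to 0.808. The lowest value of each range was that of Cd3e with the dim Cd79a. Cd3e with Ms4a1 had 0.530, or 0.506 without mouse 10. The highest of the 18 pairs were those of Cd2, at 0.848 with Cd79b and 0.811 with Ms4a1, or 0.771 and 0.808 without mouse 10. Whether B cells gave part of the Cd2 signal was not tested. The 3 pairs of B cell genes had r of 0.677 to 0.899, or 0.582 to 0.910 without mouse 10. The lowest was that of Cd79a with Cd79b, and Cd79a was well above background on only 3 of 16 arrays. All genes of an array share its RNA, labelling and scaling, so these are descriptions.

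Among 15154 named genes the 5 most like Cd3e by the same correlation were Cd3g (0.968), Nkg7 (0.961), Gzma (0.945), Cst7, which encodes a cystatin of cytotoxic cells (0.934), and Cd3d (0.928). Without mouse 10 their r was 0.904, 0.887, 0.808, 0.821 and 0.873. The 5 most like Cd79a were Fcrla, a B cell protein related to Fc receptors (0.855), Arhgap18 (0.832), 1700096K18Rik (0.829), Afap1l2 (0.828) and Nck2 (0.826), although most Cd79a values were not well above background. For the 2 brighter B cell genes, named after their values were seen, the first match was Fcmr, the Fc receptor for IgM, for Cd79b (0.940) and Fcrla for Ms4a1 (0.942).

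With every liver, the T cell genes differed more between the slide rows within each group than between the treatments, and none passed. They were lower in row 2 of ctrl-inh and higher in row 2 of miR-185-inh. The row differences compare 4 livers with 4, and the treatment difference 8 with 8. Without mouse 10 the miR-185-inh row difference was nearer 0 than the treatment difference in every T cell gene except Cd3e. It was 0.06 against -0.29 for Cd3d and 0.35 against -0.24 for Cd3e. In ctrl-inh livers Cd3d averaged -2.57 ± 0.30 in row 2 and -1.85 ± 0.44 in row 1 (SD, n = 4 each), a difference of -0.72 (SE 0.32, adjusted p = 0.209, limma), or 0.61-fold. Cd2 differed by -0.68 (adjusted p = 0.143), Lck by -0.57 (0.203), Cd8a by -0.76 (0.346), Cd3g by -0.54 (0.338) and Cd3e by -0.41 (0.460), all with limma. The B cell genes differed by -0.15 for Cd79b and -0.39 for Ms4a1, with adjusted p of 0.733 and 0.433. Of the 8 genes 0 were called, against 3.24% of all features, and 3 (Cd3d, Lck and Cd2) had an unadjusted p under 0.05 on the lower side, against 7.09%. All 6 T cell genes lay lower in row 2, with a median of -0.63, while the median of all features was 0.09. The fit shares 1 estimate of spread over both groups, so miR-185-inh mouse 10 entered these limma p-values too. Without it the ctrl-inh row differences were the same. Their adjusted p was then 0.0579 for Cd3d, 0.059 for Cd2 and 0.0992 to 0.13 for the other T cell genes (limma).

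No gene separated the ctrl-inh rows completely, against 5.28% of all features that lay lower in row 2 without overlap. In Cd3d, Cd3e, Cd3g and Cd2 the overlap came from mouse 3 of row 1 and mouse 9 of row 2. Their two-sided exact permutation p was 0.0571, where 0.0286 is the smallest that 35 splits of 4 against 4 can give. Leaving out 1 liver at a time gave 129 to 981 calls in this comparison, the fewest (129 features, 0.5%) without ctrl-inh mouse 1. Without that liver the difference was -0.54 for Cd3d, -0.51 for Cd2 and -0.32 for Cd3e. Of the endothelial markers 8 of 8 lay lower in row 2 (median -0.62) and 3 were called lower, where 1.63% of all features were. Without ctrl-inh mouse 1 their median was -0.58 and 0 were called. Of the Kupffer cell and macrophage markers 11 of 11 lay lower (median -0.35) and of the hepatocyte markers 10 of 10 lay higher (median 0.20), where 67.2% of all features lay higher, and 0 of either list were called by limma. The part of these cell types in the T cell values was not tested.

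In miR-185-inh livers the difference between the rows ran the other way. Cd3e averaged -1.80 ± 0.91 in row 2 and -2.60 ± 0.19 in row 1 (SD, n = 4 each), a difference of 0.80 (SE 0.32, adjusted p = 0.231, limma). Lck differed by 0.56 (adjusted p = 0.272), Cd8a by 0.95 (0.317), Cd3g by 0.61 (0.355), Cd3d by 0.46 (0.490) and Cd2 by 0.27 (0.628). Of all features 0% were called here by limma and 16.9% had an unadjusted p under 0.05. Cd3e and Lck did not overlap between the rows (two-sided exact permutation p = 0.0286, the smallest possible), against 2.98% of features that were higher in row 2 without overlap. Without mouse 10 the difference was 0.35 for Cd3e, 0.29 for Lck, 0.35 for Cd8a, 0.18 for Cd3g, 0.06 for Cd3d and -0.01 for Cd2. Cd79b and Ms4a1 differed by 0.13 and 0.16 with mouse 10 and by -0.08 and 0.01 without it.

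The treatment difference was therefore taken within each row. In row 2 the miR-185-inh livers averaged above the ctrl-inh livers, by 0.62 for Cd3e, 0.77 for Cd8a, 0.53 for Cd3g, 0.51 for Cd3d, 0.38 for Lck, 0.29 for Cd2, 0.38 for Ms4a1 and 0.16 for Cd79b, with adjusted p of 0.255 to 0.741 in limma and 0 of 8 called, against 5.78% of all features. Without mouse 10 these row 2 differences were 0.16 for Cd3e, 0.17 for Cd8a and 0.01 to 0.11 for the other 4 T cell genes, and -0.06 for Cd79b and 0.23 for Ms4a1. In row 1 the miR-185-inh livers averaged below the ctrl-inh livers, with differences of -0.75 for Lck (SE 0.25, adjusted p = 0.146, limma), -0.94 for Cd8a, -0.68 for Cd3d, -0.66 for Cd2, -0.61 for Cd3g and -0.60 for Cd3e. Cd79b and Ms4a1 differed there by -0.13 and -0.18, and without ctrl-inh mouse 1 by 0.02 and -0.007. Of the 8 genes 0 were called in row 1, against 0.00775% of all features.

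In row 1 every miR-185-inh liver lay below every ctrl-inh liver in 4 of the 8 genes (Cd3e, Cd8a, Lck and Cd2), against 6.46% of all features on that side. Each of the 4 had a two-sided exact permutation p of 0.0286, again the smallest possible, and none held after adjustment over all features (limma, 0.146 to 0.352). Row 1 does not hold mouse 10, so its differences are the same with and without that liver. The limma p-values are not, because the fit shares 1 estimate of spread over both rows and groups. Without mouse 10 the row 1 adjusted p was 0.074 for Cd3e, 0.0755 for Lck, 0.0982 for Cd2 and 0.106 for Cd8a (limma). Without ctrl-inh mouse 1 the row 1 difference was -0.59 for Lck, -0.70 for Cd8a, -0.49 for Cd2 and -0.51 for Cd3e. The adjusted p was then 0.32 to 0.545 (limma).

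The change of the treatment difference from row to row (row 2 difference minus row 1 difference) was 1.71 for Cd8a, 1.22 for Cd3e, 1.19 for Cd3d, 1.14 for Cd3g, 1.13 for Lck and 0.95 for Cd2, and 0.55 for Ms4a1 and 0.29 for Cd79b. The interaction term had an unadjusted p of 0.00590 to 0.0237 in all 6 T cell genes, where 7.2% of features had one under 0.05 on that side, and an adjusted p of 0.143 to 0.252 in limma, so 0 of 8 were called, against 0.372% of all features. Without mouse 10 the interaction was 1.12 for Cd8a, 0.86 for Lck, 0.78 for Cd3d, 0.76 for Cd3e, 0.72 for Cd3g and 0.67 for Cd2, with adjusted p of 0.150 to 0.270. Whether T and B cell genes differ in this term was not tested.

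**Figure D3:**
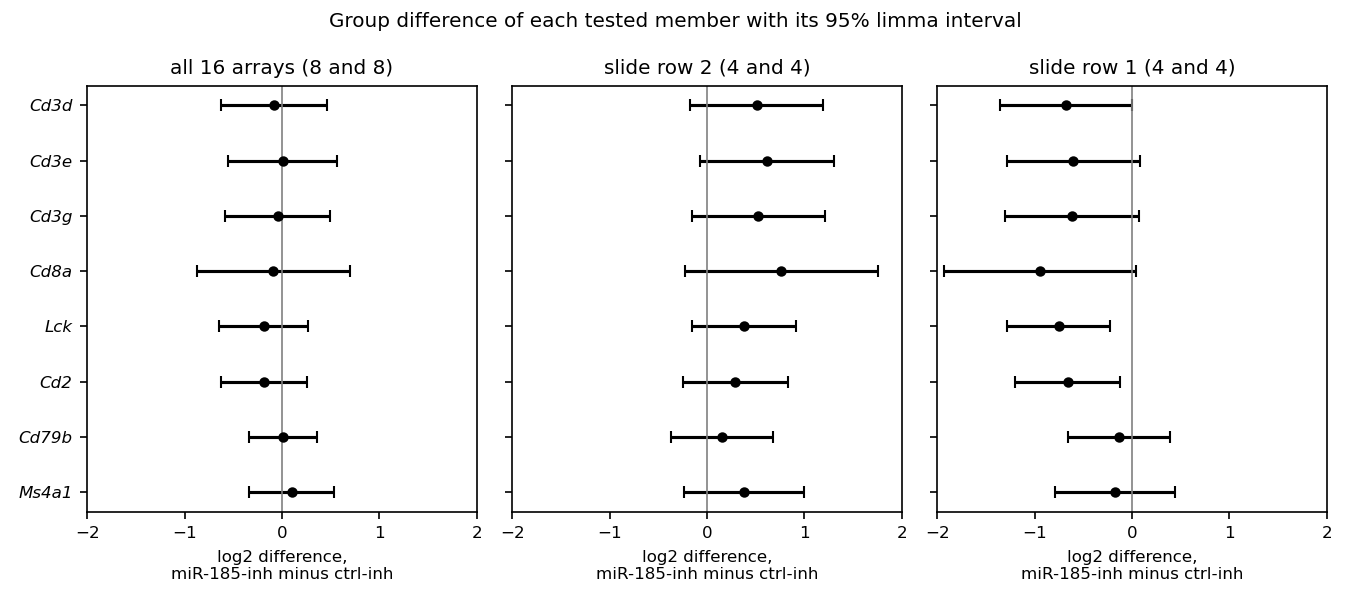
Points are the log2 differences, miR-185-inh minus ctrl-inh, of the 8 tested genes with their 95% limma intervals, over all 16 arrays (left), in slide row 2 (middle) and in slide row 1 (right). The 6 T cell genes lie above 0 in row 2 and below 0 in row 1, and near 0 over both rows.

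Other genes of the T cell lineage gave few calls between the groups. Of 22 other T cell genes 17 were tested, and Themis, a protein of T cell receptor signalling in the thymus, fell: its values averaged -4.77 ± 0.28 in miR-185-inh and -3.97 ± 0.22 in ctrl-inh (SD, n = 8 each), a difference of -0.80 (SE 0.12, adjusted p = 0.00325, limma), with every miR-185-inh liver below every ctrl-inh liver. The highest miR-185-inh value of Themis was -4.34, in mouse 3, and mouse 10 had -4.95, so Themis did not share the high value of the CD3 genes in that liver. The median over the 17 genes was -0.11, with 1 called lower and 0 higher, and 3.47% of all features were called lower. Without miR-185-inh mouse 10 the median was -0.16 with 2 called lower, where 4.15% of all features were called. Without ctrl-inh mouse 1 it was -0.025 with 1 called lower, where 4.16% of all features were called. Themis kept its call in all 16 fits that leave out 1 liver (adjusted p up to 0.00888, limma). It averaged -5.01 in miR-185-inh and -3.86 in ctrl-inh in row 2, and -4.53 and -4.08 in row 1, so the groups lay closer in row 1. Its probe was well above background on 7 of 8 miR-185-inh and 8 of 8 ctrl-inh arrays. Under normexp its difference was -0.52 (adjusted p = 0.00629, limma). Tcf7, a transcription factor of naive T cells, differed by 0.34 (adjusted p = 0.137) and Cd5, an inhibitory receptor, by -0.31 (adjusted p = 0.156), both with limma. Cd247, the zeta chain that completes the CD3 complex, was among the 5 genes too dim for a test, well above background on 0 miR-185-inh and 3 ctrl-inh arrays. Of the 18 genes of T cell receptor signalling 0 were called with every liver. Ptprc, the phosphatase CD45 of all leukocytes, came nearest with -0.48 (adjusted p = 0.0871, limma). Without miR-185-inh mouse 10, 1 of the 18 was called lower, where 4.15% of all features were called.

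B cell genes outside the 3 members gave 2 calls of 19 tested, both lower, where 3.47% of all features were called lower. Pax5, the transcription factor that fixes B cell identity, averaged -3.62 ± 0.15 in miR-185-inh and -3.29 ± 0.16 in ctrl-inh (SD, n = 8 each; difference -0.33, adjusted p = 0.0292, limma). Ly6d, a surface protein of early B cells, averaged -0.75 ± 0.24 in miR-185-inh and -0.13 ± 0.41 in ctrl-inh (difference -0.62, adjusted p = 0.0310, limma). The median over the 19 genes was 0.12, and -0.002 without miR-185-inh mouse 10, with 9 genes above 0 and 10 below; leaving out other livers gave medians of -0.007 (without ctrl-inh mouse 12) to 0.15. Leaving out 1 liver at a time, Pax5 was called in 11 of 16 fits and Ly6d in 10 of 16, with adjusted p up to 0.0559 and 0.0608 (limma), and Pax5 was not called under quantile normalization (-0.23, adjusted p = 0.0823) or with trend and robust eBayes (adjusted p = 0.0533). Of 13 genes of B cell receptor signalling, Dapp1, an adaptor downstream of phosphoinositide 3-kinase, fell by 0.34 (adjusted p = 0.0209, limma), and the list's median was 0.00. Of 8 plasma cell genes tested 0 were called; Jchain, which joins polymeric antibodies, differed by -0.62 (adjusted p = 0.0749) and Mzb1 by -0.43 (adjusted p = 0.0980).

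Of 15 NK and cytotoxic genes 0 were called between the groups by limma, against 4.71% of all features. Their median was -0.20 with 13 below 0, where 42% of all features lay above 0. Without miR-185-inh mouse 10 the median was -0.32, with all 15 below 0 and 1 called, where 4.15% of all features were called. Without ctrl-inh mouse 1 it was -0.10, with 11 below 0 and 0 called, where 4.16% of all features were called. Nearest to a call with every liver were Tbx21, a transcription factor of type 1 lymphocytes, at -0.30 (adjusted p = 0.0585) and Gzmb, a granule protease, at -0.75 (adjusted p = 0.0683). Within row 1 Gzmb fell by 1.49 (SE 0.20, adjusted p = 0.0248, limma), 1 of the 2 features called there. All 15 genes lay below 0 in row 1 with a median of -0.68, where 51.3% of all features lay above 0. Within row 2 Gzmb averaged -2.42 in miR-185-inh and -2.40 in ctrl-inh livers, and its interaction of 1.48 was called (adjusted p = 0.0482, limma), though in only 5 of the 16 fits that leave out 1 liver, with 1.35 and adjusted p = 0.0806 without miR-185-inh mouse 10. It was also not called under normexp (1.26, adjusted p = 0.0503), with the mean of a gene's probes (adjusted p = 0.0503) or with slide position as covariates (adjusted p = 0.0852), all with limma. The row 1 call of Gzmb was kept in 12 of those 16 fits and had its highest adjusted p, 0.149, without ctrl-inh mouse 2, and with slide position as covariates its adjusted p was 0.0527. Gzma differed by 1.94 from row to row (adjusted p = 0.141). The summed signal of the list, relative to the 75th percentile, was 6.40 to 20.7 in miR-185-inh and 6.79 to 13.2 in ctrl-inh.

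Between the rows of the ctrl-inh group several genes of the lymphocyte lists passed, in a comparison where 1.63% of all features were called lower in row 2. Called lower were 2 of 17 other T cell genes, 1 of 18 T cell receptor signalling genes and 2 of 15 NK and cytotoxic genes. So were 1 of 19 other B cell genes, 1 of 13 B cell receptor signalling genes and 2 of 14 lymphocyte chemokines and survival factors. Lower in row 2 were Il7r, the receptor for the T cell survival factor interleukin 7 (-1.05, adjusted p = 0.0294, limma), Cd27, a costimulatory receptor (-0.84, adjusted p = 0.0308), Fyn, the kinase related to Lck (-0.94, adjusted p = 0.0316), Klrd1, an NK cell receptor (-0.95, adjusted p = 0.0452), and Gzmb (-0.96, adjusted p = 0.0227). In the B cell lists Cd180, a receptor of the toll-like family, was lower (-0.94, adjusted p = 0.0379, limma). Fcgr2b, the inhibitory Fc receptor, listed for B cell receptor signalling, was lower too (-0.99, adjusted p = 0.0288, limma). Endothelial markers were lower in this comparison as well, and which liver cells gave the Fcgr2b signal was not tested. Il15, a cytokine that sustains NK and memory T cells, was also lower (-0.71, adjusted p = 0.0108, limma). The same held for Cxcl16, the ligand of the liver homing receptor CXCR6 (-0.56, adjusted p = 0.0285, limma). Cells other than lymphocytes make both Il15 and Cxcl16. When 1 ctrl-inh liver was left out at a time, Il15 passed in every fit and each of the other 8 named here missed in some, for example without mouse 1, where the differences were -0.94 for Il7r (adjusted p = 0.0959), -0.77 for Cd27 (0.0968) and -0.90 for Fyn (0.0959), all with limma. Under normexp background correction Cd27 differed by -0.27 (adjusted p = 0.158) and Cd180 by -0.54 (adjusted p = 0.0577). With slide position as covariates the adjusted p was 0.0527 for Klrd1 and 0.0531 for Cd180, and on the ctrl-inh arrays alone it was 0.0530 for Il7r, all with limma. The medians were -0.41 over the 17 other T cell genes, -0.26 over the T cell receptor signalling genes, -0.42 over the NK and cytotoxic genes and -0.04 over the other B cell genes, beside 0.09 over all features. Without ctrl-inh mouse 1 these medians were -0.28, -0.18, -0.29 and 0.06 in the same order, beside 0.09 over all features.

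**Figure D4:**
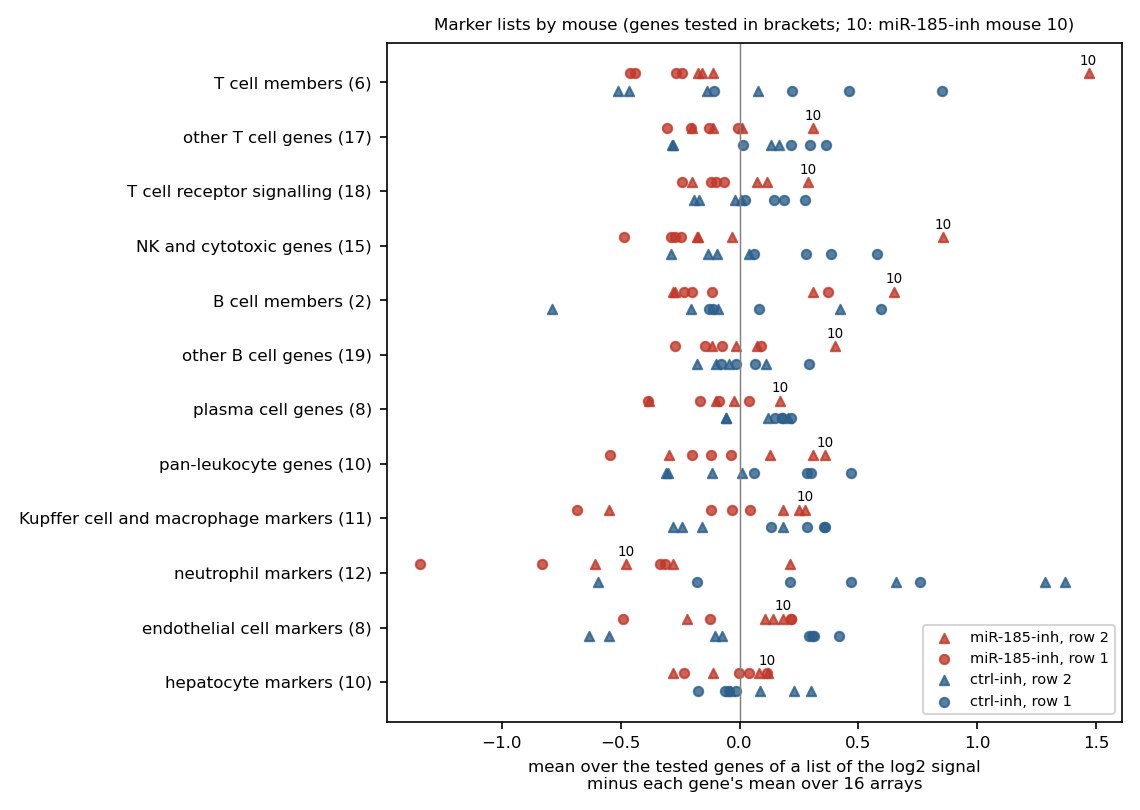
Each row of points is a list of marker genes, and each point 1 liver, at the mean over the list's tested genes of the log2 signal minus each gene's mean over the 16 arrays. Mouse 10 of miR-185-inh, numbered, lies highest of the 16 livers in the T cell members, T cell receptor signalling, NK and cytotoxic genes, B cell members and other B cell genes, and within the range of the other miR-185-inh livers in the neutrophil and endothelial lists.

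Of the neutrophil markers 12 of 12 lay below 0 in miR-185-inh against ctrl-inh, with a median of -0.89, where 42% of all features lay above 0, and 2 were called lower, where 3.47% of all features were. Leaving out 1 liver at a time gave 1 to 5 calls, with 1 without miR-185-inh mouse 10 and 4 without ctrl-inh mouse 1, and medians of -1.10 to -0.76. Apoe, named in the genotype, averaged 4.15 ± 0.27 in miR-185-inh and 3.87 ± 0.35 in ctrl-inh (SD, n = 8 each), and since its probe may lie outside the altered part of the gene these values check nothing about the genotype.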

How the data were processed

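Liver RNA of 16 mice was measured on 1-colour Agilent arrays, and groups, mouse numbers and ages were taken from the labels. Per the file headers, the intensity of each spot had been background-subtracted and processed by Agilent Feature Extraction 11.5.1.1, while the submitters' processing notes name version 9.1. The authors' deposited value table is on a log2 scale and equals log2 of the processed intensity minus 1 constant per array, with no centring of genes (column medians -1.30 to -1.22); what that constant is was not stated in any source used here. Over the 59305 non-control spots the arrays had median signals of 182 to 268, and the number of arrays limits the precision.

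Values were log2 of the processed intensity minus the array's 75th percentile. Spots marked as outliers were dropped and spots of 1 probe averaged. Probes well above background on at least 8 of 16 arrays were kept, and a gene was its brightest probe. Accessions were matched without version to RefSeq symbols (26762 of 55681 probes), and no coordinates were taken from that table, since the grid of the array uses mm9. Tests between groups and between slide rows used limma 3.58.1 (R 4.3.3), the rows in 1 fit of the 4 combinations of group and row, with Benjamini-Hochberg adjustment over 25790 features and a threshold of 0.05; single members also by two-sided exact permutation. Samples of one mouse number in both groups did not deviate together (r of -0.13 to 0.11 over 5 numbers), so no pairing was used. The fit was tested on simulated data. Normexp (offset 50), planned on the mean spot signal, used the median, the column the files hold.

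The 9 members, the other 16 gene lists and the tests were chosen with earlier results of these data known. The members were named whatever their values, together with up to 4 genes of each list by the smallest p in the group comparison and in the ctrl-inh row comparison, the 5 genes most like Cd3e and Cd79a, and Apoe; genes named for mouse 10 and those most like Cd79b and Ms4a1 were chosen after their values were seen. Of the listed genes Ccl21a, Cd68 and Hbb-b1 were not matched. Alternatives were normexp, quantile normalization, another percentile, the authors' table, other filters, the mean of a gene's probes, eBayes settings, array weights, slide position, shared mouse numbers and leaving out each liver. Promoter letters were read from RefSeq's GRCm38.p6 table.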

Additional observations from a re-analysis of the deposited data

Results flagged for a closer look

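In 6 genes the highest of the 8 miR-185-inh livers lay farther from the next one than Dixon's 95% critical value allows (a gap of 0.526 of the group's range for 8 samples), and in each it was mouse 10. Its log2 signal relative to the 75th percentile was -0.858 for Cd3d, where the next liver was at -2.265 and the gap took 0.773 of the range. For Cd3e it was -0.439 (next -2.211, gap 0.758) and for Cd3g -0.38 (next -1.921, gap 0.775). For Cd8a it was -2.184 (next -4.324, gap 0.764), for Lck -1.002 (next -1.933, gap 0.624) and for Cd2 -0.87 (next -1.718, gap 0.629). Chance flags about 1 in 20 groups, and the 6 genes come from the same array and vary together, so they are not 6 separate observations. Neither Cd79b nor Ms4a1 was past the critical value in any group, and no ctrl-inh liver was in any of the 8 tested genes. In the same liver the mean of the neutrophil list (-0.48 after centring each gene) lay within the range of the other 7 miR-185-inh livers, and that of the hepatocyte list was 0.12, level with the highest of the other 7 (0.12).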

How the results depend on the processing

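None of the 8 tested members passed in the 6 comparisons under any alternative tried; the lowest adjusted p (limma) was 0.283 for the group difference, 0.171 within row 2, 0.074 within row 1, 0.0579 for the rows of ctrl-inh, 0.15 for the rows of miR-185-inh and 0.0754 for the change of the group difference from row to row. The last kept its direction in 207 of 207 alternatives, the row difference in 214 of 215 in ctrl-inh and 213 of 215 in miR-185-inh, and the group difference, near 0, in 190 of 223. Group differences changed sign under normexp (0.05 for Cd3d, 0.004 for Cd8a), under quantile normalization (0.003 for Cd3g, 0.064 for Cd8a), with the percentile over probes detected on all arrays (-0.018 for Cd3e, -0.014 for Cd79b) and with array weights (-0.126 for Cd3e). Leaving out 1 liver at a time gave group differences of -0.288 to 0.046 for Cd3d, -0.244 to 0.09 for Cd3e, -0.269 to 0.056 for Cd3g, -0.411 to 0.07 for Cd8a, -0.342 to -0.074 for Lck, -0.323 to -0.065 for Cd2, -0.09 to 0.089 for Cd79b and -0.048 to 0.202 for Ms4a1. It gave row differences of -0.339 to 0.001 for Cd79b in ctrl-inh, and of -0.006 to 0.443 for Cd2 and -0.08 to 0.269 for Cd79b in miR-185-inh. Why the signs turned was not tested. The all-array filter on dim probes leaves out Cd8a, and Cd79a passed neither filter.

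Counts of called features moved more. Between the groups leaving out 1 liver gave 735 to 1582 calls, against 1215; in the rows of ctrl-inh 129 to 981, against 836; in the rows of miR-185-inh 0 to 709, against 0; within row 2 450 to 1834, against 1491; within row 1 0 to 171, against 2; and for the change from row to row 5 to 449, against 96. In the rows of ctrl-inh 2313 features were called under normexp, 2802 with array weights and 6112 with no filter. Within row 1 the count was 294 under normexp, 4 under quantile normalization, 452 with the other percentile, 60 in the authors' table, 3682 with no filter, 1 with the all-array filter, 36 with trend and robust eBayes, 786 with array weights and 0 with the slide position as covariates. Within row 2 it was 910 with no filter. The change from row to row had 32 calls under normexp, 170 under quantile normalization, 415 with the other percentile, 2366 with no filter, 42 with the mean of a gene's probes, 295 with array weights and 29 with the position covariates. Of the group calls 320 were higher and 895 lower, against 558 and 608 under normexp, 396 and 457 under quantile normalization and 310 and 1506 with the other percentile.

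With the mouse number as a replicate block over the 5 numbers present in both groups, 0 features were called (2598 at an unadjusted p under 0.05), and with the same mice and no block, an alternative chosen after seeing the data, also 0 (2876). Under the block and without it the differences were -0.157 for Cd3e, -0.215 for Cd79b and -0.027 for Ms4a1. The numbers share no more than a number, with r of -0.13 to 0.11 between deviations of same-numbered samples.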
